A study of Mus musculus with 49 samples.

Results

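Long deletions at Cas9 target sites were examined in a clonal mouse embryonic stem (mES) cell line, as reads of integrated reporters (IRs) that carried a single deletion of 20 or more bases. Members were chosen by the deletion size measured in each read, so their size is a description of the choice and no test was made on it. Of 577722 reads that carried any of the 36 barcodes of the line, 24552 were such long deletions, 8413 with sgRNA1, 8892 with sgRNA2 and 7247 with sgRNA3. Reads listed with several lesions were not members.

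The line, EStTA-PB-B-18, was grown from 1 cell of the EBRTcH3 background, which expresses the tetracycline-controlled transactivator from the ROSA26 promoter. It carries, by its labels, 36 copies of a piggyBac reporter with the mouse PGK promoter and the EGFP gene, each marked by its own barcode. Of these, 27 have a mapped genomic position and 9 have none. Cells were transfected with a plasmid for SpCas9 and sgRNA1, sgRNA2 or sgRNA3, without a donor oligonucleotide, and the amplified target regions were sequenced. There is 1 sample per guide. Replicate transfections were merged by the authors and carry no label in the data, so the guides were compared with no test. By the study's methods, primers with several index sequences served for separate reactions of the line. Reads of sgRNA1 and sgRNA2 begin mostly with 1 of 4 pairs of bases, but no source used here ties these pairs to the indexes or to replicates, so they were not used as replicates. IRs of the same clone and reads of the same library are not replicates of a guide. Sample labels of sgRNA1 and sgRNA2 carry a number that differs from that of sgRNA3, and any batch it stands for cannot be told apart from the guide. An untreated sample of the line was not analysed here, so no background without Cas9 is given.

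Cas9 cuts both DNA strands a few bases upstream of the PAM, the short motif beside the target. Non-homologous end joining ligates the ends with little processing and mostly leaves small insertions and deletions. When the ends are resected, short repeats on either side of the break can pair, and microhomology-mediated end joining then removes one repeat copy and everything between the copies. Such a deletion can be written at several equivalent positions, because the retained copy may be assigned to either side. Here the length of the microhomology is the number of bases by which a deletion can be shifted along the wild-type reporter with the same product, and all equivalent placements were joined as 1 deletion.

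The sequences below are the guide targets and the end of the EGFP coding sequence, to show where the cuts lie. In the targets the PAM is in capitals. In the EGFP end, read from the consensus of wild-type reads, the stop codon is in capitals.
sgRNA1 target: gccgagagtgatcccggcggCGG
sgRNA2 target: cgccgggatcactctcggcaTGG
sgRNA3 target: agtgtcacctaaatcgtatgCGG
EGFP end: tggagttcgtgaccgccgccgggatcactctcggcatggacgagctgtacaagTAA

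Positions were counted along the sense strand of the reporter from base 1 of the reads of sgRNA1 and sgRNA2, in a window of 116 bases that ends at the barcode. The printed EGFP end covers bases 19 to 74, with the stop codon at bases 72 to 74. The target of sgRNA1 is antisense, opposite bases 34 to 53, with the 3|4 cut site between bases 36 and 37. sgRNA2 matches the sense strand at bases 35 to 54 and cuts between bases 51 and 52. sgRNA3 is antisense too, opposite bases 88 to 107 after the stop codon, and cuts between bases 90 and 91. Reads of sgRNA3 run from the barcode towards EGFP, and they were turned round to share this numbering. In all 24552 members the listed deleted bases were those of the consensus. Deleted bases are absent from a read, so this checks the numbering alone.

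The most frequent long deletions are shown as the joined product, in the sense of the reporter. Capitals mark the microhomology, of which wild-type DNA has a copy at both ends of the deletion and the product a single copy. Numbers in the names give the order by reads within a guide.
sgRNA1 deletion 1: catggtcctgctGGAtcactctcggca
sgRNA1 deletion 2: tcctgctggagtTCGgcatggacgagc
sgRNA1 deletion 3: tcctgctggagtTCtcggcatggacg
sgRNA1 deletion 4: acatggtcctgcTGGAcgagctgtacaa
sgRNA1 deletion 5: catggtcctgctGGcatggacgagct
sgRNA2 deletion 1: cgtgaccgccgcCGagctgtacaagt
sgRNA2 deletion 2: tcacatggtcctGCTGtacaagtaagaa
sgRNA2 deletion 3: gtcctgctggagTTCGcggccgcatacg
sgRNA2 deletion 4: tggagttcgtgaCCGCatacgatttagg
sgRNA2 deletion 5: ttcgtgaccgccGCtgtacaagtaag
sgRNA3 deletion 1: ctgtacaagtaaGAcactgcaggatc
sgRNA3 deletion 2: tggacgagctgtACActgcaggatca
sgRNA3 deletion 3: gctgtacaagtaAGgtgacactgcag
sgRNA3 deletion 4: agtaagaattcgCtgcaggatca
sgRNA3 deletion 5: taagaattcgcgGCaggatca

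Long deletions were a minor outcome with each guide. With sgRNA1, the mean share of reads over the 36 IRs was 4.28% ± 1.18 (SD over IRs). It was 5.41% ± 1.48 for sgRNA2 and 3.40% ± 0.801 for sgRNA3. With the reads of all IRs pooled, shares were 4.25% (95% Wilson interval 4.16 to 4.34) of 198078 reads with sgRNA1, 5.26% (5.15 to 5.36) of 169141 with sgRNA2 and 3.44% (3.37 to 3.52) of 210503 with sgRNA3. The reads have no molecular identifiers, so these intervals and those that follow cover counting error only. Long deletions made up 9.19% of the single deletions with sgRNA1, 12.6% with sgRNA2 and 8.93% with sgRNA3. Of all mutated reads they were 8.32%, 9.94% and 5.22% in the same order. The alignment score deposited with each read falls with deletion size, and leaving out reads under its 10th percentile lowered the mean shares to 3.34%, 3.59% and 0.00721%.

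Read counts around the limit did not fall smoothly with size. With sgRNA1, 1674 reads had a deletion of 18 bases and 1076 one of 19 bases, against 1577 reads at 20 and 249 at 21 bases. With sgRNA2 the counts were 269 and 1175 just below the limit and 272 and 899 at 20 and 21 bases. With sgRNA3 they were 1375 and 750 below it and 355 and 581 at 20 and 21 bases. The limit of 20 bases thus fell within a series of peaks.

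The median size was 24 bases with sgRNA1 (quartiles 22 and 34), 30 bases with sgRNA2 (24 and 45) and 27 bases with sgRNA3 (24 and 32). Sizes of 20 to 29 bases held 63.3% of the long deletions with sgRNA1, 48.9% with sgRNA2 and 68.1% with sgRNA3. Sizes of 40 to 49 bases held 6.78%, 16.1% and 10.7% in the same order. At 50 or more bases there were 396 reads with sgRNA1, which is 4.71%, and 1318 with sgRNA2, which is 14.8%, but none with sgRNA3.

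What the reads could hold differed between the guides. Wild-type reads had 80 aligned bases with sgRNA1 and sgRNA2 and 68 with sgRNA3. A deletion brings bases from further along the reporter into the read, and the sgRNA3 alignments ended at 117 bases, so 49 bases was the largest deletion that they could show. That size was reached by 6 reads. The longest deletions with sgRNA1 and sgRNA2 had 67 bases, seen in 1 and 2 reads. At the other end, all placements began before base 19 in only 13 long deletions with sgRNA1 and 7 with sgRNA2. From base 19 there are 18 bases to the sgRNA1 cut and 33 to the sgRNA2 cut. The reads themselves begin at base 1. Primers listed for the line share at most 6 bases in a row with the window, whereas a primer listed for other samples of the study shares 13 in a row, at bases 2 to 14. The last bases of that primer match the window again, from before base 19 to past it. Primers that the study lists for a check of barcodes and promoters in the pool also match the window, across or past base 19. They were not part of this comparison. Which primer gave these read starts is not stated in the sources used here, and whether a primer site kept deletions before base 19 from being read was not tested. With sgRNA3, ends that at least 10 reads shared lay up to 20 bases beyond the cut on the barcode side. The shares of long deletions are thus shares of those that could be read.

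Single sizes stood out. The most frequent sizes with sgRNA1 were 20 bases (18.7% of the long deletions), 24 bases (12.4%) and 22 bases (12.2%), and a further peak lay at 36 bases (9.22%). With sgRNA2 they were 21 bases (10.1%), 54 bases (9.41%) and 26 bases (6.01%), followed by 24 bases (5.98%). With sgRNA3 they were 24 bases (14.8%), 27 bases (10.5%) and 21 bases (8.02%). The 54-base peak of sgRNA2 had neighbours at 53 and 55 bases with 11 and 12 reads, against 837 reads at 54 bases.

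Few deletions made up most long-deletion reads with sgRNA1, less so with the other guides. There were 325 different long deletions with sgRNA1, 563 with sgRNA2 and 288 with sgRNA3, of which 80, 106 and 19 were seen in a single read. The most frequent deletion of sgRNA1 held 15.9% of its long deletions (95% Wilson interval 15.1 to 16.7), that of sgRNA2 5.66% (5.20 to 6.16) and that of sgRNA3 6.47% (5.93 to 7.06). The 5 most frequent together held 49.8%, 20.8% and 18.2%. It took 6 deletions to reach 50% of the reads with sgRNA1, 26 with sgRNA2 and 24 with sgRNA3.

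With sgRNA1, each of the leading deletions had 2 to 4 bases of microhomology. Deletion 1 removed 20 bases with the shared bases GGA, and its 1337 reads were found at all 36 IRs. Among the long deletions of an IR it held 15.6% ± 3.70 (SD over IRs), from 6.75% at BC_8 to 23.8% at BC_21. It was the most frequent long deletion at 28 of the 36 IRs. Deletion 2 removed 24 bases with TCG as microhomology (823 reads, 9.78%), and deletion 3 removed 22 bases with TC (780 reads, 9.27%). Both start at base 25 in their leftmost placement and were seen at all 36 IRs. Deletion 4 removed 36 bases between copies of TGGA, 18 on either side of the cut, with 756 reads (8.99%). It was seen at 35 IRs, and its share ranged from 0% at BC_32 to 18.5% at BC_6. Deletion 5 removed 31 bases with GG (493 reads, 5.86%).

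With sgRNA2, the leading deletions were spread over a wider range of sizes. Deletion 1 removed 21 bases with CG as microhomology, in 503 reads at all 36 IRs, with a mean of 5.69% ± 2.29 (SD over IRs) of the long deletions. Deletion 2 removed 45 bases between copies of GCTG (409 reads, 4.60%). Deletions 3 and 4 both removed 54 bases, with TTCG (357 reads, 4.01%) and CCGC (295 reads, 3.32%) as microhomology. Both take away the stop codon. Deletion 5 removed 26 bases with GC (287 reads, 3.23%). No single deletion led across the IRs, since deletion 1 was the most frequent at 11 IRs and deletion 2 at 10.

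With sgRNA3, the leading deletions had 1 to 3 bases of microhomology. Deletion 1 removed 27 bases with GA, in 469 reads at 35 IRs, and held 6.55% ± 3.08 (SD over IRs) of the long deletions. It starts just after the stop codon, at base 75, and led at 17 of the 36 IRs. Deletion 2 removed 36 bases with ACA (237 reads, 3.27%) and included the stop codon. Deletions 3, 4 and 5 each removed 24 bases, with 217 reads (2.99%), 206 reads (2.84%) and 190 reads (2.62%). Their microhomologies were AG, a single C and GC.

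Targets of sgRNA1 and sgRNA2 overlap, and their cuts lie 15 bases apart, so the same deletion can span both cuts. In all, 198 long deletions were seen with both guides, which is 60.9% of the different deletions of sgRNA1 and 35.2% of those of sgRNA2. They held 83.0% of the long-deletion reads of sgRNA1 and 60.3% of those of sgRNA2. A single read sufficed for this count, and the 43 deletions with at least 10 reads with each guide held 44.9% and 36.7%. The 20-base deletion that led with sgRNA1 ends before the sgRNA2 cut and had 1 read with sgRNA2, and the 21-base deletion that led with sgRNA2 starts past the sgRNA1 cut and had 7 reads with sgRNA1. Deletions that reach both cuts in some placement held 54.4% of the long-deletion reads of sgRNA1 and 57.9% of those of sgRNA2, and they too differed in reads. Among them the 24-base deletion at TCG led with sgRNA1, with 823 reads against 20 with sgRNA2, and the 45-base deletion at GCTG led with sgRNA2. Some deletions between longer repeats were read often with both guides. The 45-base deletion at GCTG had 298 reads with sgRNA1 and 409 with sgRNA2, and the 36-base deletion at TGGA had 756 and 162. sgRNA3 shared 14 long deletions with sgRNA2 and none with sgRNA1.

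Microhomology of 2 or more bases was present in 68.1% (95% Wilson interval 67.1 to 69.1) of the long deletions of sgRNA1. The share was 53.8% (52.8 to 54.9) for sgRNA2 and 38.7% (37.6 to 39.8) for sgRNA3. Per IR the means were 67.1% ± 6.93 (SD over IRs), 53.2% ± 7.52 and 39.5% ± 8.47. Each guide has 1 target site, and the order of the guides was not tested. At least 3 shared bases were present in 44.3%, 26.1% and 11.8%, and none in 14.6%, 17.9% and 21.9%, in the same order. When each different deletion was counted a single time per guide, 12.6%, 11.2% and 11.5% had 2 or more shared bases.

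Shorter deletions of the same guides were set beside these values. Among single deletions of 10 to 19 bases, 44.0% with sgRNA1, 65.0% with sgRNA2 and 40.8% with sgRNA3 had 2 or more shared bases. Among those of 1 to 9 bases the shares were 59.9%, 14.3% and 27.0%. In these small deletions a shift can exceed the deletion itself, where it lies in a run of short repeats. At least 4 shared bases were present in 15.2% of the long deletions with sgRNA1, 18.4% with sgRNA2 and 1.2% with sgRNA3. Among single deletions of 1 to 9 bases the share was 53.7% with sgRNA1. Between the outermost ends of the long deletions, the sequence allows no deletion with 4 or more shared bases that reaches the cut at 10 to 19 bases with any guide, nor at 1 to 9 bases with sgRNA2 and sgRNA3, so no share is compared there.

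A deletion of this size has many possible ends, of which few have microhomology. All deletions of 20 bases up to the longest seen were listed that reach the cut and lie between the outermost ends shared by at least 10 reads. This gave 705 possible deletions for sgRNA1, 1004 for sgRNA2 and 472 for sgRNA3. Of these, 6.38%, 6.18% and 7.20% have 2 or more shared bases, against the 68.1%, 53.8% and 38.7% of reads given above. Each joined deletion counts a single time in this list, although one with shared bases can come from several pairs of ends. The listed shares are therefore not those that joining of ends at random would give. The same limit holds for the reads per possible deletion that follow. Possible deletions with 2 or more shared bases had a mean of 127 reads each with sgRNA1, 77.1 with sgRNA2 and 82.1 with sgRNA3. Those with fewer had means of 4.03, 4.27 and 10.1 reads. A few deletions carried much of the former, whose medians were 15, 29 and 45.5 reads, against 0, 1 and 2 for the latter. Without the 5 most frequent long deletions of each guide, the means were 38.3, 51.4 and 55.9 reads with 2 or more shared bases and 4.03, 4.27 and 9.65 with fewer. Of the possible deletions with such microhomology, 86.7%, 93.5% and 88.2% were read at least once, and of the others 40.8%, 50.1% and 56.8%.

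Possible deletions with 4 or more shared bases number 6 for sgRNA1, 8 for sgRNA2 and 2 for sgRNA3. All of them were read at least once except a 35-base deletion between copies of GCAT, which had 0 reads with sgRNA2 and 3 with sgRNA3. The longest repeat, GCCGC, flanks a deletion of 51 bases, which had 192 reads with sgRNA2 and 30 with sgRNA1 and was thus not the most frequent with either guide. A 48-base deletion at GCCG, of which a placement starts at the sgRNA1 cut, had 4 reads with sgRNA1 and 205 with sgRNA2. With sgRNA3, a 33-base deletion at ACGA had 84 reads. Reads therefore varied widely between deletions with the same length of repeat.

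Nearly all long deletions reached the cut. Counting a deletion as reaching it when any equivalent placement covers or borders the 3|4 site, 27 reads of sgRNA1 did not, which is 0.321% (95% Wilson interval 0.221 to 0.467). With sgRNA2 there were 71 such reads, or 0.798% (0.634 to 1.01), and with sgRNA3 there were 18, or 0.248% (0.157 to 0.392). Most ended close by, since 24 of the 27, 64 of the 71 and all 18 lay 1 to 5 bases from the cut. The farthest were 9, 11 and 3 bases away. All 27 with sgRNA1 lay on the barcode side and all 18 with sgRNA3 on the EGFP side, as did 70 of the 71 with sgRNA2. Few deletions began before base 19, which is 18 bases from the sgRNA1 cut, and sgRNA3 ends lay up to 20 bases past its cut. The opposite side thus had almost no room for a deletion of 20 or more bases with sgRNA1 and sgRNA3, and nothing is read from their sides. Of the single deletions of 1 to 19 bases, 3.72%, 10.6% and 29.8% did not reach the cut by the same count. In the study, deletions with sgRNA3 often bordered the 4|5 site, and a border at that site alone did not count here. The part of that site in these values was not tested. A longer deletion covers a given site more easily, and the part of size in the difference from the long deletions was not tested. With the placement as deposited alone, 1.13%, 1.15% and 1.77% of the long deletions did not.

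The most frequent deletion away from the cut was read rarely with each guide. With sgRNA1 it was the 21-base deletion that led with sgRNA2, with 7 reads at 4 IRs, 1 base from the cut. With sgRNA2 it was a 20-base deletion from base 31 to base 50 without microhomology, with 22 reads at 8 IRs, also 1 base from the cut. With sgRNA3 it was a 44-base deletion from base 44 to base 87 with CA as microhomology, with 5 reads at 1 IR. This deletion was also read 8 times with sgRNA2.

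Both ends were mostly away from the cut itself. Bases were lost on both sides in every placement in 95.8% of the long deletions with sgRNA1, 94.1% with sgRNA2 and 94.3% with sgRNA3. An end could be placed exactly at the cut in 3.86%, 5.14% and 5.42%. For sgRNA1 the loss was then on the barcode side in 324 of 325 reads, and for sgRNA3 on the EGFP side in all 393 reads. sgRNA2 had 243 reads on the barcode side and 214 on the EGFP side. Few deletions began before base 19, which is 18 bases from the sgRNA1 cut, and sgRNA3 ends lay up to 20 bases past its cut. A loss of 20 or more bases on that side alone hardly fits there, so these sides do not compare the guides. With the leftmost placement, deletions that reached the cut took a median of 15 bases on the EGFP side and 12 on the barcode side with sgRNA1, 16 and 15 with sgRNA2, and 17 and 11 with sgRNA3. Where a deletion can be shifted, this placement gives the largest loss on the EGFP side and the smallest on the barcode side. The part of this choice and of the read ends in these medians was not tested. The stop codon lost at least 1 base in every placement, so that the product does not keep it, in 5.80% of the long deletions with sgRNA1, 33.2% with sgRNA2 and 45.9% with sgRNA3.

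The share of long deletions varied between IRs. The 95% Wilson interval of the IR did not contain the mean over IRs at 21 of 36 IRs for sgRNA1, 24 for sgRNA2 and 15 for sgRNA3. PCR copies can make these intervals too narrow, so the counts are descriptions. Depth per IR ranged from 2105 to 11160 reads with sgRNA1, from 1581 to 9618 with sgRNA2 and from 1873 to 11481 with sgRNA3. Shares ran from 1.57% to 6.32% with sgRNA1, from 2.22% to 8.75% with sgRNA2 and from 1.65% to 5.05% with sgRNA3.

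The highest mean over guides was that of BC_33, at position 88333913 of chromosome 1 (mm9). Its share was 6.28% (95% Wilson interval 5.54 to 7.11) with sgRNA1, 8.75% (7.71 to 9.90) with sgRNA2 and 4.95% (4.23 to 5.78) with sgRNA3. BC_7, which has no mapped position, followed with 5.12%, 7.96% and 4.39%. BC_36, at position 86451259 of chromosome 12, had 6.32%, 7.34% and 3.52%. By the GENCODE annotation of mm9 both mapped IRs lie outside genes, BC_33 at 9375 bp from the pseudogene 1700019O17Rik and BC_36 at 524 bp from Dlst, which encodes a subunit of the 2-oxoglutarate dehydrogenase complex.

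The lowest mean was that of BC_26, with 1.57% (1.22 to 2.01) with sgRNA1, 2.22% (1.76 to 2.79) with sgRNA2 and 1.84% (1.45 to 2.34) with sgRNA3. BC_30 had 1.59%, 2.66% and 1.65%. Neither has a mapped position. Both IRs also had few mutated reads of any kind, 34.2% and 32.1% with sgRNA1 against a mean of 51.2% ± 6.36 (SD over IRs). BC_32, at position 35521093 of chromosome 13 and outside genes, had 2.67%, 4.02% and 2.2%, but 59.8% of its reads were mutated with sgRNA1. Its low share of long deletions thus stood beside a mutation frequency above the mean.

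Long deletions were compared with other lesions across IRs. With sgRNA1, the share of long deletions and that of single deletions of 1 to 19 bases had a Pearson's r of 0.05 and a Spearman's rho of -0.16 (n = 36 IRs). With sgRNA2 r was 0.11 and rho -0.19, and with sgRNA3 r was 0.28 and rho -0.08. With all other mutated reads, which include insertions and reads of several lesions, r was 0.08, 0.17 and 0.01 and rho -0.14, -0.10 and -0.32 in the order of the guides. The relative spread was wider for the long deletions, whose SD over IRs was 27.7%, 27.3% and 23.5% of the mean, against 14.2%, 16.4% and 17.4% for the deletions of 1 to 19 bases. Fewer reads per IR add counting error to the former, and its part in the spread was not tested. These IRs share a clone and a library, so the correlations are descriptions.

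Between guides, the share of long deletions was related across the 36 IRs, with r = 0.83 and rho = 0.79 for sgRNA1 and sgRNA2. For sgRNA1 and sgRNA3 it had r = 0.54 and rho = 0.52, and for sgRNA2 and sgRNA3 r = 0.54 and rho = 0.50. Without the 3 IRs with the lowest mean, r was 0.76, 0.29 and 0.35, so the relation with sgRNA3 rests in part on BC_26, BC_30 and BC_32. Long deletions with 2 or more shared bases, as a share of all reads, had r = 0.86, 0.69 and 0.65 in the same order. Those with fewer shared bases had r = 0.59, 0.30 and 0.43. IR by IR, long deletions were more frequent with sgRNA2 than with sgRNA1 at 33 of 36 IRs, by a mean of 1.13 percentage points ± 0.822 (SD over IRs). They were more frequent with sgRNA2 than with sgRNA3 at 34 IRs and with sgRNA1 than with sgRNA3 at 30 IRs. The reads of sgRNA3 could hold deletions of at most 49 bases, and when only sizes of 20 to 49 bases were counted, the mean share was 4.07% with sgRNA1, 4.58% with sgRNA2 and 3.40% with sgRNA3. With a limit of 25 bases in place of 20, the mean share was 2.08%, 3.97% and 2.15% in the same order. The order of sgRNA1 and sgRNA3 thus depends on the limit, and that of sgRNA2 above both was kept. Room for a deletion on the shorter side of the cut also differed, at 18, 33 and 20 bases in the same order. It was largest with sgRNA2 under either size limit, and its part in the order of the guides was not tested.

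The share of long deletions and their microhomology were related across IRs under sgRNA1 and sgRNA2, with exceptions. The share of reads with a long deletion and the share of long deletions with 2 or more shared bases had r = 0.53 and rho = 0.48 with sgRNA1, r = 0.61 and rho = 0.63 with sgRNA2, and r = 0.08 and rho = 0.11 with sgRNA3. At BC_33, the IR with the highest mean share, 63.2% of the long deletions had 2 or more shared bases with sgRNA1, below the mean over IRs of 67.1%, while 56.1% with sgRNA2 was above its mean of 53.2%. At BC_36 the share was 74.4% with sgRNA1, the highest of the 36 IRs with sgRNA2, and with sgRNA3 the highest as well at 65.2%, against a mean of 39.5%. BC_36 also had the fewest reads of the 36 IRs with each guide (2105, 1581 and 1873), and its value with sgRNA3 rests on 66 long deletions. BC_26, with the lowest mean share of long deletions, had 54.1%, 42.9% and 49.2%, of which the last is above the mean. At BC_36, long deletions with 2 or more shared bases were 4.70% of reads with sgRNA1, 5.06% with sgRNA2 and 2.30% with sgRNA3. At BC_26 they were 0.850%, 0.951% and 0.906%. Both values of each correlation come from the same reads of 1 library.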

How the data were processed

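The cell line samples of sgRNA1, sgRNA2 and sgRNA3 were used, with 203778, 174002 and 217969 reads, of which 198078, 169141 and 210503 carried 1 of the 36 barcodes. The authors parsed each read for its barcode, aligned it semi-globally to the wild-type reporter and deposited its lesion class, changed bases, position and an alignment score, with replicates merged. IR positions are those that the authors mapped on mm9 (Bowtie2 2.0 in the submitters' processing notes).

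Members and lists were chosen with earlier results of these data known. The consensus came from wild-type reads and, past their end, from the members. Deletions were placed on it, equivalent placements were joined, and shares were computed with 95% Wilson intervals (Python 3.11.15, pandas 2.3.3, numpy 2.4.6, scipy 1.17.1). The placement step was tested on simulated data. Named deletions were the 5 most frequent per guide and the most frequent away from the cut. Named IRs were the 3 highest and 3 lowest by mean share over guides. Other deletions with 4 or more shared bases were named after their values were seen. Alternatives covered weighting of IRs, several lesions, low scores, other barcodes, length limits, frequent deletions, the microhomology minimum and placement. Left out were 2 count columns of the line, which belong to another study, and the pool data.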

Additional observations from a re-analysis of the deposited data

Results flagged for a closer look

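Long deletions were also present in reads outside the members. Their shares are given beside the limit that a count of 0 allows (3 counts of the total), which shows only that they were present, since no untreated sample was used. The most frequent barcode outside the 36 had a single long deletion in 4.33% of 3784 reads with sgRNA1 (limit 0.0793%), 6.11% of 2896 reads with sgRNA2 (limit 0.104%) and 2.96% of 3551 reads with sgRNA3 (limit 0.0845%). Its read numbers lay within the range of the 36 IRs with each guide, and whether it belongs to a further reporter of the line was not tested. All other barcodes outside the 36 had 2.61%, 4.89% and 3.09% in the same order (limits 0.157%, 0.153% and 0.0766%).

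Reads of the 36 barcodes that list several lesions, with a deleted piece of 20 or more bases among them, were 0.134% of all reads with sgRNA1, 0.310% with sgRNA2 and 0.199% with sgRNA3 (limits 0.00151%, 0.00177% and 0.00143%).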

How the results depend on the processing

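Of 74 shares and medians recomputed under an alternative, 25 stayed within the 95% counting interval of the main value and 49 did not. All 6 recomputed correlations, which have no such interval, changed at 2 decimals. Values are given for sgRNA1, sgRNA2 and sgRNA3 in that order unless named.

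The share of reads with a long deletion (main values 4.28%, 5.41% and 3.40%) was 4.42%, 5.73% and 3.60% with reads of several lesions, 2.08%, 3.97% and 2.15% with a limit of 25 bases, and 3.60%, 5.03% and 3.11% without the most frequent long deletion of each IR. Pooled reads gave 5.26% with sgRNA2. Without reads under the 10th percentile of the alignment score it was 3.34%, 3.59% and 0.00721%. The score falls with deletion size (rho = -0.72, -0.86 and -0.91), and this filter takes 99.8% of the long deletions of sgRNA3, so its other values with sgRNA3 rest on few reads. Chosen after seeing the data were a range of 20 to 49 bases, with 4.07% for sgRNA1 and 4.58% for sgRNA2, and reads with the same first 2 bases, with 4.38% for TA with sgRNA1 and 5.62% for CT and 5.19% for TA with sgRNA2.

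Microhomology of 2 or more bases (68.1%, 53.8% and 38.7%) became 85.4%, 82.1% and 78.1% with a minimum of 1 base and 44.3%, 26.1% and 11.8% with 3 bases. Counting each deletion once per IR gave 34.2%, 34.9% and 28.7%, and once per guide 12.6%, 11.2% and 11.5%, so the order of the guides was not kept. Without low scores it was 65.8%, 41.7% and 13.3%, and at 20 to 49 bases 48.4% with sgRNA2.

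The share that does not reach the cut (0.321%, 0.798% and 0.248%) was 1.13%, 1.15% and 1.77% with placements as deposited, and 0.0357%, 0.0787% and 0% when ends up to 5 bases away counted as reaching. Once per IR it was 0.949% with sgRNA1 and 1.26% with sgRNA2, and without low scores 1.2% with sgRNA2 and 0% with sgRNA3.

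The median size (24, 30 and 27 bases) was 32, 34 and 30 bases with each deletion once per guide, 27 bases with sgRNA1 once per IR, and 28 bases with sgRNA2 at 20 to 49 bases. The share of the most frequent deletion stayed within its interval in all 6 alternative values. Pearson's r between guides (0.83, 0.54 and 0.54) was 0.84, 0.59 and 0.59 as a share of mutated reads and 0.76, 0.29 and 0.35 without the 3 lowest IRs, both chosen after seeing the data. The cause of these moves was not tested.

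No paired test over replicates was possible because there is 1 sample per guide. The pairing of guides by IR is a description only. Depth limits which rare deletions can be seen, since an IR has as few as 1581 reads. Read length bounds the sizes that can be seen, and PCR copies cannot be told apart from molecules.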

Other observations

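Sizes that are a multiple of 3 held 42.8% of the long deletions with sgRNA1, 54.1% with sgRNA2 and 47.5% with sgRNA3. Among single deletions of 1 to 19 bases the shares were 61.7%, 29.2% and 23.1%. Single sizes weighed in these shares, such as 54 bases with sgRNA2 (837 reads) and 3 bases with sgRNA1 (38054 reads). No share over the possible deletions was set beside them.

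In members of sgRNA1 and sgRNA2 whose deletion was large enough to bring the barcode into the aligned read, the barcode was compared with the one assigned to the read. With sgRNA1, 335 reads could be compared, of which 300 were identical, 34 had up to 3 mismatches and 1 had more. With sgRNA2, 982 reads could be compared, of which 895 were identical and 87 had up to 3 mismatches. In none of these reads was it another of the 36 barcodes.

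Reads of sgRNA1 and sgRNA2 begin mostly with 1 of 4 pairs of bases, which no source used here ties to the index sequences of the primers or to replicates. Pooled over IRs, the share of long deletions was 4.27% for GT, 4.29% for AG, 4.35% for TA and 4.18% for CT with sgRNA1. With sgRNA2 it was 5.31%, 5.40%, 5.07% and 5.38% in the same order.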
